A study of Bos taurus with 13 samples.

Results

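The most abundant transcripts of bovine umbilical cord mesenchymal stem cells were followed through heat and recovery. The members were chosen by their measured level, as all genes with a mean normalised read count of at least 20000 over the 13 libraries, a rule that 138 of the 16595 genes in the deposited table met (0.832%). The rule used the level of each gene averaged over all libraries, so levels and shares of the library are given as a description without a test, while differences between groups were tested. Values are reads scaled between libraries and not divided by transcript length, so the order of the members is an order of reads, not of molecules.

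Mesenchymal stem cells are stromal cells that attach to plastic and can form several tissues. Primary cultures of early passages from Bos taurus umbilical cord were used, grown in low-glucose medium with fetal bovine serum. Polyadenylated RNA was sequenced from 5 groups that differed in temperature and time, starting a day after seeding. The 6 h control (ShortNT, n = 3) was kept at 37 °C for 6 h and the 6 h heat group (ShortHS, n = 3) at 40.5 °C for 6 h. The 3-day control (LongNT, n = 2) was kept at 37 °C for 3 days and the 3-day heat group (LongHS, n = 3) at 40.5 °C for 3 days. The recovery group (ShortHS_Recovery, n = 2) had 6 h at 40.5 °C and then, by the sample titles, 66 h at 37 °C, while the series text gives that period as 3 days. The design separates immediate from later or lasting transcriptional effects of heat. The labels name no donor, animal or day for the libraries, so p-values measure the spread between these libraries, which may be partly technical.

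Stromal cells in culture typically give much of their messenger RNA to a small set of genes: collagens and other proteins secreted into the extracellular matrix, actin and other parts of the cytoskeleton, ribosomal proteins and translation factors, and messages made in mitochondria. Heat calls on molecular chaperones, proteins that keep others from misfolding, and their transcripts can then join the most abundant ones. The deposited table names genes by Ensembl identifier only, and none of these could be paired with a symbol or a sequence here, so no member is assigned to any of these classes and the stromal label was not checked against marker genes. Members are called by their rank by mean value, member 1 being the most abundant, and an identifier is given for 4 of them: ENSBTAG00000013103 is member 1, ENSBTAG00000043561 member 2, ENSBTAG00000014614 member 20 and ENSBTAG00000007662 member 22.

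Levels fell off steeply with rank. Only 2 members had a mean of at least 400000, 7 reached 200000, 14 reached 100000 and 41 reached 50000. The median member had a mean of 32219, against 480 for the 13684 genes tested. At the lower end the last members had means of 20609, 20396 and 20047, and the first genes outside had 19956, 19879 and 19787, so the limit cuts a continuous series of levels. Counting error was small for these genes: libraries held between 14859428 and 39117065 recovered reads, and the lowest member in any library still had 4090 reads.

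Membership was mostly shared by the groups. Of the 138 members, 89 had a group mean of at least 20000 in all 5 groups, 23 in 4 groups, 18 in 3 and 8 in 2, and none in fewer. Conversely, 51 genes that are no members reached 20000 in at least 1 group. When each library's own 138 highest genes were taken, between 107 (3-day heat, replicate 3) and 128 (3-day control, replicate 1) of them were members.

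**Figure D1:**
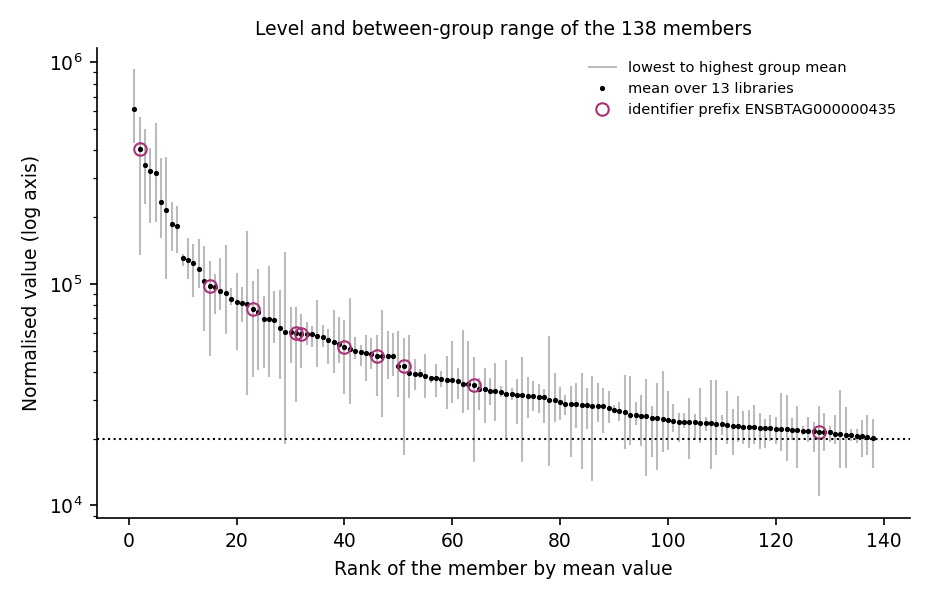
Mean normalised value over the 13 libraries (points, log axis) of each of the 138 members against its rank, with bars from the lowest to the highest group mean and a dotted line at the limit of 20000. Circles mark the 10 members with identifiers that start with ENSBTAG000000435. Levels fall from over 400000 to the limit, and several bars, such as those of members 22 and 29, span much more than the step to the next rank.

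The 138 members took between 31.9% and 35.9% of each library's summed values. Their share in the 6 h control was 32.1% ± 0.368 (SD, n = 3), and it was 33.7% ± 0.380 (n = 3) after 6 h of heat. It was 34.1% ± 0.104 (n = 2) in the 3-day control, 34.3% ± 0.079 (n = 2) after recovery and 35.3% ± 1.03 (n = 3) after 3 days of heat. The 6 h control libraries, at 32.0%, 31.9% and 32.5%, lay below all other libraries. The 3-day heat libraries were split, with 35.9% and 35.9% in replicates 1 and 2 but 34.1% in replicate 3, which lay between the 3-day control libraries.

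The small net differences in share hid larger opposite movements of single members. Between the 3-day control and 3-day heat, 61 members gained 8.34 percentage points together and 77 lost points (-7.15 in sum), for a net gain of 1.2 points. Without member 1, which gained the most, that net gain became -0.348 points. Without member 2, which lost the most, the share was 31.8% in the 3-day control and 34.8% after 3 days of heat. Between the 6 h control and 6 h heat the gains were 4.12 points over 75 members and the losses -2.53 points over 63, a net gain of 1.59 points. Between the 3-day control and recovery the gains were 1.89 and the losses -1.71 points. The 2 control groups, 3 days against 6 h at 37 °C, differed by 2.0 points, more than heat changed the share at either time.

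Reads were more concentrated in the very top genes after 3 days of heat. The 10 highest members held 10.7% ± 0.565 in the 6 h control, 11.6% ± 0.316 after 6 h of heat, 12.2% ± 0.282 in the 3-day control, 12.3% ± 0.130 after recovery and 14.6% ± 0.885 after 3 days of heat. The other 128 members held 21.4%, 22.1%, 21.9%, 22.0% and 20.7% in the same order. Ranks were taken over all libraries, so genes high after 3 days of heat could enter the 10 through that group. The count that follows uses each library's own order instead. The number of genes needed to make up 25% of a library's summed values was 61 to 70 in the 6 h control, 52 to 57 after 6 h of heat, 56 in both 3-day control libraries, 54 in both recovery libraries and 44 to 49 after 3 days of heat.

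**Figure D2:**
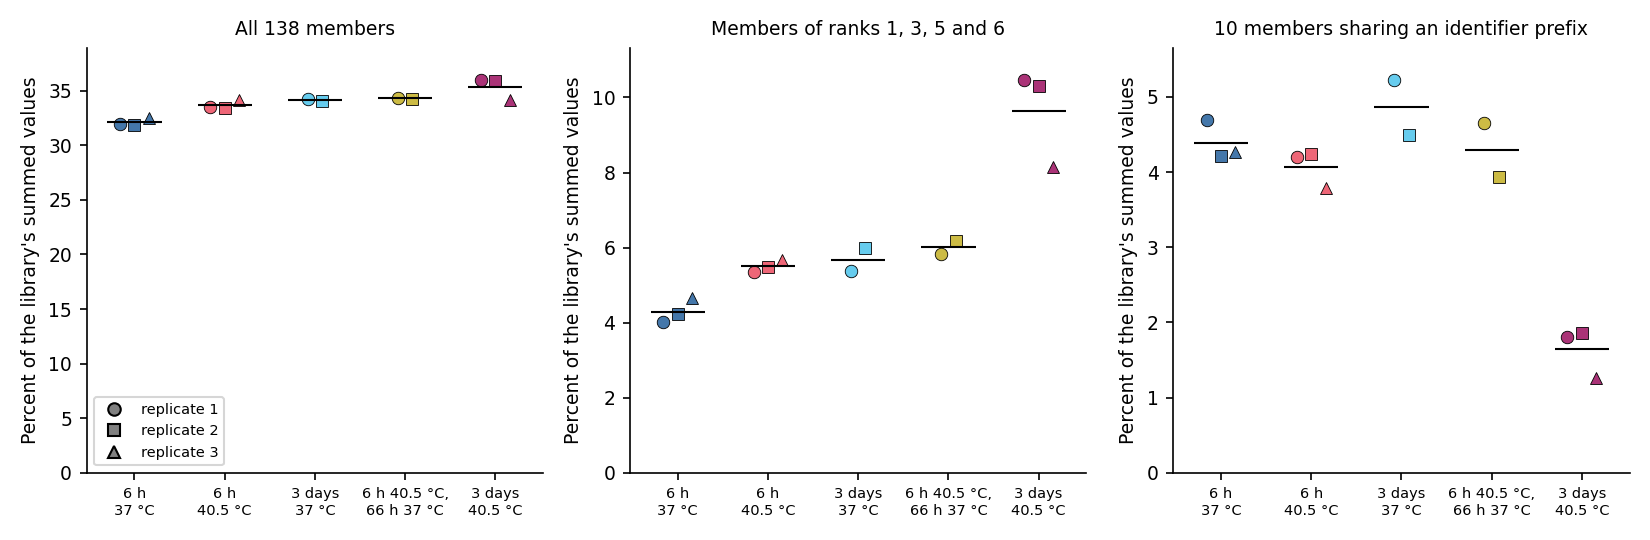
Share of each library's summed normalised values (percent) taken by all 138 members (left), by members 1, 3, 5 and 6 together (middle) and by the 10 members that share an identifier prefix (right), with 1 symbol per library and a line at the group mean. The left panel stays between 31.9% and 35.9%, while the 3-day heat libraries stand highest in the middle panel and lowest in the right one.

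Members 1, 3, 5 and 6, grouped here after their values were seen, held 4.29% ± 0.324 of the summed values in the 6 h control, 5.50% ± 0.155 after 6 h of heat, 5.68% ± 0.435 in the 3-day control, 6.01% ± 0.237 after recovery and 9.63% ± 1.29 after 3 days of heat. Member 1 (ENSBTAG00000013103) read 411754, 446514 and 441430 in the 6 h control and 535251, 553539 and 555048 after 6 h of heat. It read 517616 and 598821 in the 3-day control, 566940 and 609554 after recovery and 1008620, 988115 and 798929 after 3 days of heat. Its 3 libraries of 3-day heat were above all others, and its share of the summed values there was 3.85% against 2.30% in the 3-day control. The change at 3 days was 0.74 on the log2 scale (SE 0.18, limma adjusted p = 0.00877). It was lost when 3-day control replicate 1 was left out (0.63, adjusted p = 0.072), in a fit of only the groups compared (adjusted p = 0.127) and under quantile scaling (0.16, adjusted p = 0.593).

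At 6 h, member 1 also read higher in every heated library than in any control, but the change of 0.34 did not pass limma's test (adjusted p = 0.144). A fit with a block for replicate number passed (adjusted p = 0.0283). Members 3 and 5 behaved alike in that respect, with 0.40 (adjusted p = 0.0807, with the block 0.0115) and 0.45 (adjusted p = 0.114, with the block 0.00156) at 6 h.

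Member 5 read 204797, 217122 and 150917 in the 6 h control, 280582, 274192 and 222985 after 6 h of heat, 278482 and 283276 in the 3-day control, 315110 and 313964 after recovery, and 601185, 599881 and 393710 after 3 days of heat. All 3 libraries of 3-day heat were above all others, and the rise at 3 days was 0.89 (SE 0.23, limma adjusted p = 0.009). This rise did not pass without 3-day control replicate 1 (0.88) or under quantile scaling (0.64, adjusted p = 0.121). Nor did it pass in a fit of only the groups compared (adjusted p = 0.0528). Member 3 rose by 0.56 at 3 days (limma adjusted p = 0.0263), a call lost when either 3-day control library or replicate 1 or 2 of 3-day heat was left out, with adjusted p from 0.0511 to 0.155. Member 6 read 103689, 103247 and 275542 in the 6 h control, 149534, 158507 and 288188 after 6 h of heat, 197004 and 210361 in the 3-day control, 216158 and 236120 after recovery, and 390623, 384186 and 336622 after 3 days of heat. Its replicate 3 read much higher than replicates 1 and 2 at 6 h, and its change at 3 days of 0.86 (SE 0.39) did not pass (adjusted p = 0.101).

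A spread of this kind between replicates ran through the members, and through all tested genes as well. In the 3 groups with 3 replicates, replicate 3 differed from the mean of replicates 1 and 2 by a median of 0.239 (6 h control), 0.184 (6 h heat) and 0.203 (3-day heat) on the log2 scale over the members, whereas replicates 1 and 2 differed by 0.0706, 0.0516 and 0.0300. Over all tested genes these medians were 0.239, 0.213 and 0.185 for replicate 3, and 0.0915, 0.0947 and 0.0814 for replicates 1 and 2. The number of members that differed by at least 0.5 was 29, 24 and 32. Member 108, picked after its values were seen, had the largest spread within groups: it read 19650, 19528 and 4689 in the 6 h control, 21174, 20370 and 5581 after 6 h of heat, and 32603, 30204 and 11439 after 3 days of heat. The residual SD of log2 values had a median of 0.136 over the members and 0.170 over all tested genes. The 3-day control and recovery groups hold no replicate 3. What sets replicate 3 apart was not tested.

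The clearest fall under 3 days of heat was that of member 2. ENSBTAG00000043561 read 444729, 422284 and 444901 in the 6 h control, 466688, 474456 and 423409 after 6 h of heat, 616521 and 519171 in the 3-day control, 567731 and 477574 after recovery, and 150238, 155744 and 100006 after 3 days of heat. The 3-day heat libraries lay far below all others, and the recovery libraries overlapped the 3-day control. At 3 days it fell by 2.09 on the log2 scale (SE 0.21, limma adjusted p = 4.31e-05), to 0.235 of the control, and passed under each alternative run, with values from -2.22 to -1.89. Its order by group mean was 1 or 2 in the other 4 groups and 11 after 3 days of heat. At 6 h the difference was 0.06 (adjusted p = 0.859), and the effects at 3 days and 6 h differed by -2.15 (SE 0.28, adjusted p = 0.00111).

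Member 2 is the highest of 10 members with identifiers that begin with ENSBTAG000000435, namely members 2, 15, 23, 31, 32, 40, 46, 51, 64 and 128. They were grouped after their values were seen, because neighbouring identifiers recurred among the falls, and the grouping gets no test. Ensembl numbers say nothing certain of function or position, and none is assigned. Of the 24 genes in the table with this prefix, 17 were tested, and the highest one outside the members had a mean of 19536.

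All 10 fell after 3 days of heat, by limma's test over all genes, which called 20.3% of all tested genes lower. The changes of the 10 ran from -2.09 to -0.70, with a median of -1.29. Their summed share was 4.39% ± 0.259 in the 6 h control, 4.07% ± 0.252 after 6 h of heat, 4.86% ± 0.509 in the 3-day control and 4.29% ± 0.516 after recovery. After 3 days of heat it was 1.64% ± 0.336, with no overlap with any other library. Of the other 128 members, 31 rose and 35 fell in the same comparison, and of the 7 tested genes with the prefix outside the members, 1 rose and 4 fell. At 6 h none of the 10 passed, with values from -0.40 to 0.16, while 31.5% of all tested genes passed. After recovery none passed either, but only 0.797% of all tested genes did. All 10 differences from the 3-day control were negative, from -0.37 to -0.12, and that of member 2 turned positive under 3 of 17 alternatives (up to 0.005). The summed shares overlapped, at 4.66% and 3.93% after recovery and 5.22% and 4.50% in the 3-day control. Within the 3-day heat group, the share was lowest in replicate 3, at 1.26%, against 1.81% and 1.86%.

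Member 51 had the second largest fall after 3 days of heat. It read 53835, 45996 and 56927 in the 6 h control, 44477, 42545 and 46063 after 6 h of heat, 63177 and 50562 in the 3-day control, 54537 and 46207 after recovery, and 17797, 18738 and 13873 after 3 days of heat. Again the 3-day heat libraries alone stood apart (-1.76, SE 0.15, limma adjusted p = 1.66e-05). Members 64, 23 and 15 changed by -1.61, -1.46 and -1.45. For members 2, 15, 23, 31, 51, 64 and 128 the effect of heat at 3 days was below that at 6 h by limma's test of the difference, which 13.9% of all tested genes passed. For members 32, 40 and 46 that difference did not pass. Members 15 and 23 lost that call without 3-day control replicate 1 (adjusted p = 0.0616 and 0.0726).

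Over the whole set, 6 h of heat changed 28 of the 138 members (20.3%), 14 up and 14 down. Of all 13684 tested genes, 31.5% passed, 14.8% up and 16.7% down. The median absolute difference was 0.16 on the log2 scale over the members and 0.27 over all tested genes. The median signed change was 0.03 for the members and -0.01 for all genes. With the replicate number as a block, 54 members passed (39.1%), 27 in each direction, and 6107 of all tested genes (44.6%). Replicates 1 and 2 alone gave 60 members (43.5%) and 6108 genes (44.6%), so the members' share then lay close to that of all genes.

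Members 22 and 29 had the largest rises at 6 h. Member 29 read 36488, 34730 and 38954 in the 6 h control, 139170, 142517 and 136925 after 6 h of heat, 21894 and 22678 in the 3-day control, 18919 and 19053 after recovery, and 56698, 57910 and 65114 after 3 days of heat. The groups did not overlap at either time, and the 6 h heat libraries were the highest. It rose 3.8-fold at 6 h (1.93, SE 0.08, limma adjusted p = 1.1e-07) and by 1.42 at 3 days (SE 0.09, adjusted p = 2.58e-06), a difference between times of -0.50 (adjusted p = 0.0211). That difference was lost without replicate 2 of the 6 h control, replicate 1 of 3-day heat or either 3-day control library (adjusted p from 0.0507 to 0.0634). It had the widest span of group means among the members, 2.88 on the log2 scale, and ranked from 11 in the 6 h heat group to 152 after recovery.

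Member 22 (ENSBTAG00000007662) read 32573, 30777 and 30954 in the 6 h control and 123992, 119244 and 115704 after 6 h of heat. It read 79503 and 33757 in the 3-day control, 190708 and 155923 after recovery, and 45864, 46894 and 45906 after 3 days of heat. High values were seen in the 6 h heat and recovery libraries, and the 2 libraries of the 3-day control stood far apart. It rose 3.81-fold at 6 h (1.93, SE 0.23, limma adjusted p = 0.000125), and at 3 days of heat the difference was -0.16 (adjusted p = 0.636). The sign at 3 days turned on which control library was kept: the difference was 0.45 without 3-day control replicate 1 (adjusted p = 0.031) and -0.78 without replicate 2 (adjusted p = 0.00259). The effects at 3 days and 6 h differed by -2.09 (SE 0.34, adjusted p = 0.00372), and that difference passed under each alternative run, with values from -2.71 to -1.47.

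Members 24, 14, 41 and 26 rose at 6 h by 1.52, 1.12, 1.02 and 0.89. Member 14 read 75003, 70773 and 57766 in the 6 h control, 165230, 159972 and 119648 after 6 h of heat, 62699 and 59738 in the 3-day control, 74090 and 73200 after recovery, and 146831, 148915 and 120772 after 3 days of heat. Both heat groups stood above all libraries that were at 37 °C when harvested. The rise was 1.12 at 6 h (SE 0.15, limma adjusted p = 0.000242) and 1.18 at 3 days (SE 0.17, adjusted p = 0.000344), and the 2 effects differed by 0.05 (SE 0.22, adjusted p = 0.903). Member 26 was instead highest at 6 h: 65588, 63568 and 66812 in the control against 122695, 119283 and 120838 after heat (0.89, SE 0.09, limma adjusted p = 3.33e-05), with a smaller rise of 0.32 at 3 days (adjusted p = 0.0223). That smaller rise was lost without 3-day control replicate 1 (0.23, adjusted p = 0.179).

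Falls at 6 h were smaller than the largest rises. Member 20 (ENSBTAG00000014614) read 76346, 81356 and 99770 in the 6 h control, 46846, 43165 and 61369 after 6 h of heat, 83320 and 86475 in the 3-day control, 79891 and 79186 after recovery, and 100364, 104811 and 130315 after 3 days of heat. The 6 h heat libraries were the lowest of all 13. It fell by 0.77 at 6 h (SE 0.15, limma adjusted p = 0.00289) and was 0.39 higher at 3 days, which did not pass (adjusted p = 0.0929). The effects differed by 1.16 (SE 0.23, adjusted p = 0.00904). Member 13 read 167821, 157669 and 154108 in the 6 h control, 98862, 95829 and 92830 after 6 h of heat, 116068 and 124824 in the 3-day control, 103871 and 106837 after recovery, and 92711, 97530 and 101178 after 3 days of heat. It was highest in the 6 h control alone, and fell by 0.74 at 6 h (SE 0.09, adjusted p = 0.000177). The largest falls also included member 97 (-0.76), member 73 (-0.52) and member 21 (-0.51).

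**Figure D3:**
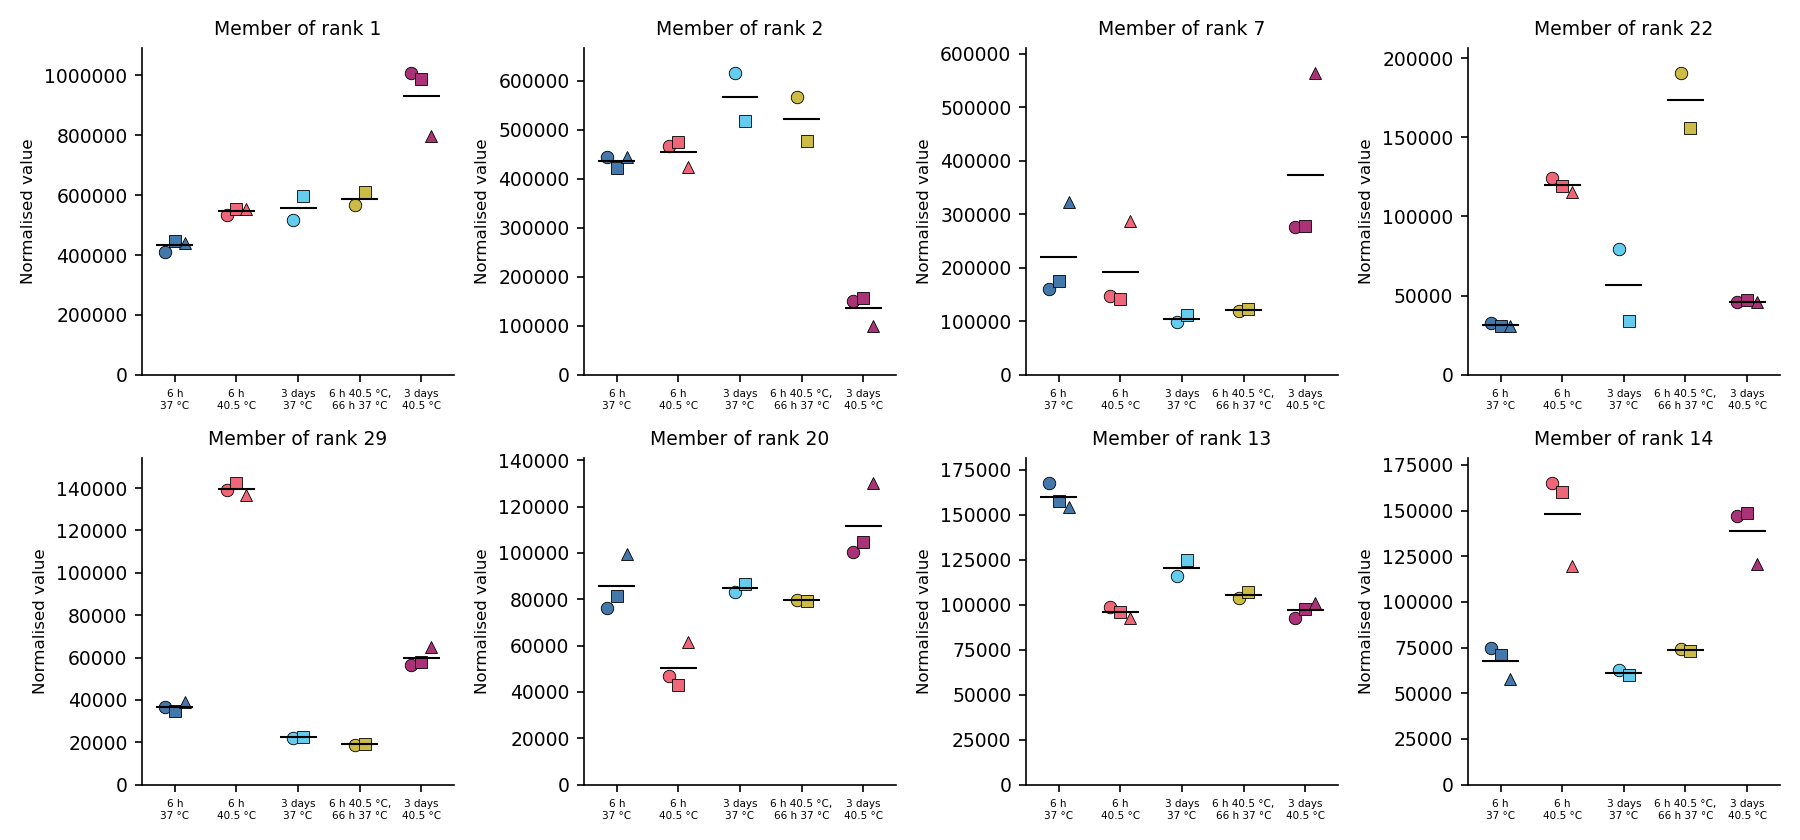
Normalised value in every library for members 1, 2, 7, 22, 29, 20, 13 and 14, with circles, squares and triangles for replicates 1, 2 and 3 and a line at the group mean. Member 2 is lowest and member 1 highest after 3 days of heat, member 22 is high after 6 h of heat and after recovery, and replicate 3 of member 7 stands above the other replicates.

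After 3 days of heat, 76 of the 138 members had changed (55.1%), 31 up and 45 down. Of all tested genes 40.4% passed, 20.1% up and 20.3% down. The median absolute difference was 0.45 among the members and 0.36 among all genes, and the median signed change was -0.09 and -0.00. Of the members called, 19 had a log2 change of 1 or more in size (25%), against 24.7% of all genes called, and at 6 h these were 5 members (17.9%) against 16.6%. When 3-day control replicate 1 was left out fewer members were called, and fewer of all tested genes as well.

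Among the rises at 3 days, member 7 had the largest. It read 161110, 175815 and 322942 in the 6 h control, 146435, 140881 and 287733 after 6 h of heat, 98588 and 110868 in the 3-day control, 119375 and 122948 after recovery, and 275346, 278407 and 564074 after 3 days of heat. Replicate 3 was the highest library of each group that has one, and all 3-day heat libraries lay above both 3-day control libraries. It rose 3.36-fold (1.75, SE 0.40, limma adjusted p = 0.00517), and its order by group mean went from 16 in the 3-day control to 4. The 3-day control holds no replicate 3, so the size of this rise includes that library's offset. Over the alternatives run the change was between 1.41 and 1.92. Member 28 rose by 1.33 (SE 0.28, adjusted p = 0.0033) and member 62 by 1.18 (adjusted p = 0.0381, lost without either 3-day control library, at 0.154 without replicate 1 and 0.118 without replicate 2, and without replicate 1 or 3 of 3-day heat, at 0.0516 and 0.115). Member 78 read 15664, 16545 and 12785 in the 6 h control, 18812, 18435 and 17775 after 6 h of heat, 26510 and 28135 in the 3-day control, 31589 and 30814 after recovery, and 60667, 60569 and 52465 after 3 days of heat. It was higher at 3 days than at 6 h and highest with 3 days of heat (1.08, SE 0.11, adjusted p = 5.22e-05).

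Besides the members that share a prefix, members 4 and 12 were among the most abundant that fell. Member 12 read 131927, 129621 and 127406 in the 6 h control, 126263, 123178 and 127573 after 6 h of heat, 150234 and 151844 in the 3-day control, 139160 and 142686 after recovery, and 85838, 87712 and 87583 after 3 days of heat. Replicates lay close together, and the 3-day heat libraries were the lowest (-0.80, SE 0.10, limma adjusted p = 0.00015). Member 4 read 441114, 408064 and 240327 in the 6 h control, 373640, 370497 and 215901 after 6 h of heat, 413870 and 402868 in the 3-day control, 387034 and 402871 after recovery, and 212302, 217296 and 134185 after 3 days of heat. Replicate 3 was the lowest of each group that has one. The 3-day control has none, and the change at 3 days was between -1.27 and -0.90 over the alternatives run. The fall at 3 days of 1.15 on the log2 scale (-1.15, SE 0.32, adjusted p = 0.0143) was lost without 3-day control replicate 1 (adjusted p = 0.0773) or replicate 2 (adjusted p = 0.0624).

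The 6 h and 3-day heat comparisons share no library, and 18 members passed in both, which is 64.3% of the 28 called at 6 h and 23.7% of the 76 called at 3 days. Of these, 15 changed in the same direction, 8 up and 7 down. Of all tested genes 2436 passed in both, 56.5% of those called at 6 h and 44% of those called at 3 days, and 2285 of these (93.8%) kept their direction, against 83.3% of the 18 members. Members 14, 24, 26, 29 and 41 were among those that rose at both times, and members 13 and 73 among those that fell. The 3-day rise of member 24 was lost without 3-day control replicate 2 (0.43, adjusted p = 0.145). The 3-day fall of member 13 (-0.31) was lost without either 3-day control library or replicate 1 or 2 of 3-day heat (adjusted p from 0.0661 to 0.159) and under quantile scaling (-0.14, adjusted p = 0.417). The 3 with opposite directions, named after their values were seen, were members 83 and 136, which fell at 6 h and rose at 3 days, and member 44, which did the reverse. A further 58 members passed at 3 days only, 21 up (15.2%) and 37 down (26.8%), against 10.9% and 11.8% of all tested genes. At 6 h only, 5 members passed in each direction (3.62%), against 5.92% of all tested genes up and 7.78% down.

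**Figure D4:**
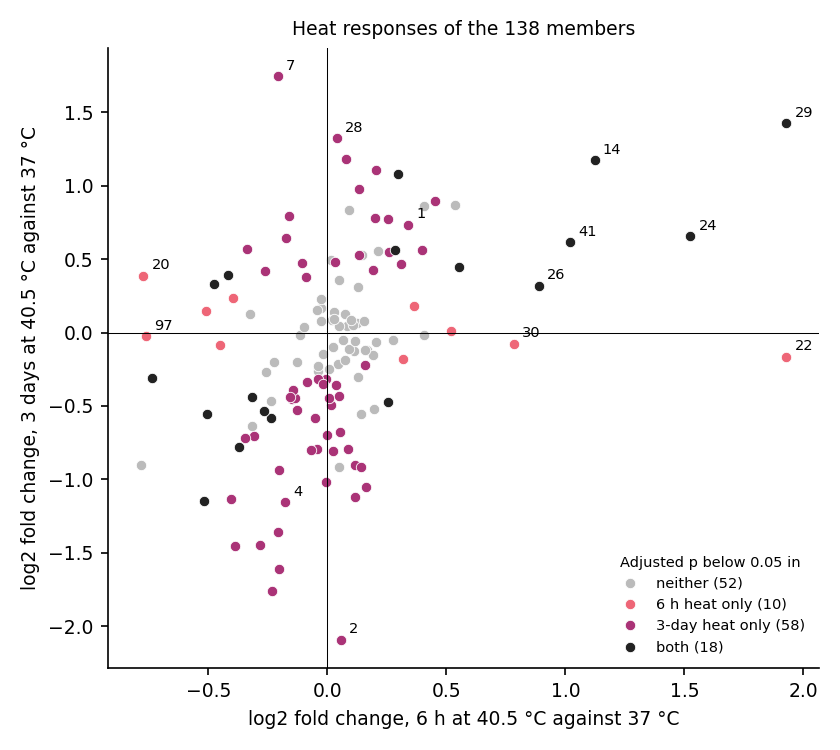
Log2 fold change of each of the 138 members after 6 h of heat (x axis) and after 3 days of heat (y axis), each against its own 37 °C control, coloured by the comparison in which it passed an adjusted p of 0.05, with numbers for the ranks of some members. Most points lie close to 0 on the x axis and spread along the y axis, with members 14, 24, 26, 29 and 41 raised on both and member 22 on the x axis alone.

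The difference between the heat effects at 3 days and at 6 h passed for 41 members (29.7%), 14 with a higher and 27 with a lower effect at 3 days, while 13.9% of all tested genes passed. Fewer members and fewer tested genes passed without 3-day control replicate 1. The main fit called 1897 of all tested genes. Without replicate 2 of the 6 h control 27 members and 1287 genes passed. Leaving out replicate 2 of 6 h heat gave 27 members and 1291 genes.

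After recovery only member 22 passed against the 3-day control (0.725%), against 0.797% of all tested genes, 0.643% up and 0.153% down. The median absolute difference was 0.13 over the members and 0.15 over all genes. At an unadjusted p below 0.05 there were 21 members and 1513 genes. By edgeR's quasi-likelihood test 1 member and 103 genes passed, and by DESeq2 11 members (7.97%) and 316 genes (2.31%). With replicates 1 and 2 only, 38 members (27.5%) and 1792 genes (13.1%) passed. Member 22 was 3.33-fold higher after recovery (1.73, SE 0.28, limma adjusted p = 0.0237), at 190708 and 155923 against 79503 and 33757. With either recovery library left out the difference no longer passed (1.59, adjusted p = 0.265 without replicate 1, and 1.88, adjusted p = 0.118 without replicate 2). It was 2.35 without 3-day control replicate 1 and 1.12 without replicate 2, and passed both times. Member 24, which had risen by 1.52 at 6 h, read 97792 and 82045 after recovery against 55313 and 40409 (0.92, SE 0.20, adjusted p = 0.0624), which passed under 8 of 17 alternatives, DESeq2 among them (adjusted p = 0.000471).

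The difference between recovery and the 6 h effect of heat passed for 7 members (5.07%), while 11% of all tested genes passed. Members 29, 41, 26 and 14, which had risen at 6 h, had lower effects after recovery by -2.16, -1.18, -1.16 and -0.86. Members 97 and 13, which had fallen at 6 h, had higher ones by 0.79 and 0.55. The calls of members 14, 97 and 13 were lost under most left-out libraries, with adjusted p up to 0.128, 0.139 and 0.138. Member 22 did not pass this test (-0.19, SE 0.36, adjusted p = 0.803), and its difference was 0.42 without 3-day control replicate 1 (adjusted p = 0.157) and -0.81 without replicate 2 (adjusted p = 0.0233). Leaving out single libraries of the 6 h groups gave 3 to 8 members and 1049 to 1939 of all tested genes.

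Compared directly with recovery, 3 days of heat differed in 65 members (47.1%), 23 up and 42 down, against 36% of all tested genes, 17.8% up and 18.2% down. This comparison shares the 3-day heat libraries with the comparison of 3-day heat and its control. Member 29 was higher by 1.66 (SE 0.09, limma adjusted p = 9.85e-07), member 7 by 1.53 (adjusted p = 0.0116) and member 1 by 0.66 (adjusted p = 0.0173). The calls of members 7 and 1 were lost without recovery replicate 1 (1.51 and 0.60) or replicate 2 (1.56 and 0.71). Member 1 also lost it under quantile scaling (0.16, adjusted p = 0.603) and in a fit of only the groups compared (adjusted p = 0.114). Member 2 was lower by -1.97 (adjusted p = 7.6e-05), member 22 by -1.90 (adjusted p = 0.000337) and member 51 by -1.59 (adjusted p = 4.16e-05). All 10 members with the shared prefix were lower, from -1.97 to -0.50. Without either recovery library fewer members passed, and fewer of all tested genes as well.

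Time at 37 °C alone also moved some of the most abundant transcripts. Between 6 h and 3 days at 37 °C, 32 members differed (23.2%), 20 up and 12 down, against 25.3% of all tested genes, 11.7% up and 13.6% down. The median signed change was 0.09 for the members and -0.01 for all genes. Fewer members and fewer of all tested genes passed without 3-day control replicate 1. By DESeq2 49 members (35.5%) and 3848 genes (28.1%) passed. With the replicate block 75 members (54.3%) and 5028 genes (36.7%) passed. Replicates 1 and 2 alone gave 92 members (66.7%) and 5950 genes (43.5%), so the members' share then lay above that of all genes. The 6 h control holds a replicate 3 and the 3-day control does not. In the main fit none of the 10 members with the shared prefix passed.

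Members 18 and 96 rose the most with time. Member 18 read 69330, 69480 and 40540 in the 6 h control, 71856, 66548 and 40241 after 6 h of heat, 150959 and 137512 in the 3-day control, 150423 and 150665 after recovery, and 97718, 90848 and 40356 after 3 days of heat. It was highest in the 4 libraries of 3 days that ended at 37 °C. The rise with time was 1.31 (SE 0.38, limma adjusted p = 0.026), and was lost without either 3-day control library (adjusted p = 0.15 and 0.0845) or without replicate 3 of the 6 h control (adjusted p = 0.0643). Member 96 read 15617, 15296 and 9970 in the 6 h control and 32886 and 32612 in the 3-day control (1.29, SE 0.26, adjusted p = 0.00555, or 0.0539 without 3-day control replicate 1). Its values of 37739, 38703 and 21608 after 3 days of heat overlapped the 3-day control.

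Member 84 fell the most with time. It read 35218, 37760 and 45331 in the 6 h control, 38944, 37091 and 33525 after 6 h of heat, 17070 and 19733 in the 3-day control, 14510 and 14772 after recovery, and 24059, 24864 and 27714 after 3 days of heat. All 6 h libraries were above all 3-day libraries, and the fall was 1.10 on the log2 scale (-1.10, SE 0.12, limma adjusted p = 0.000292). Members 29, 98, 26 and 76 followed, with -0.72, -0.53, -0.51 and -0.43. Members 98, 26 and 76 did not pass without 3-day control replicate 1 (adjusted p = 0.134, 0.0593 and 0.0571), nor member 98 without replicate 2 (0.0678). Member 9 rose by 0.66 (adjusted p = 0.011), from 139532, 139338 and 134430 to 214296 and 221396. That call was lost without 3-day control replicate 1 (adjusted p = 0.065) or replicate 2 (adjusted p = 0.0547).

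**Figure D5:**
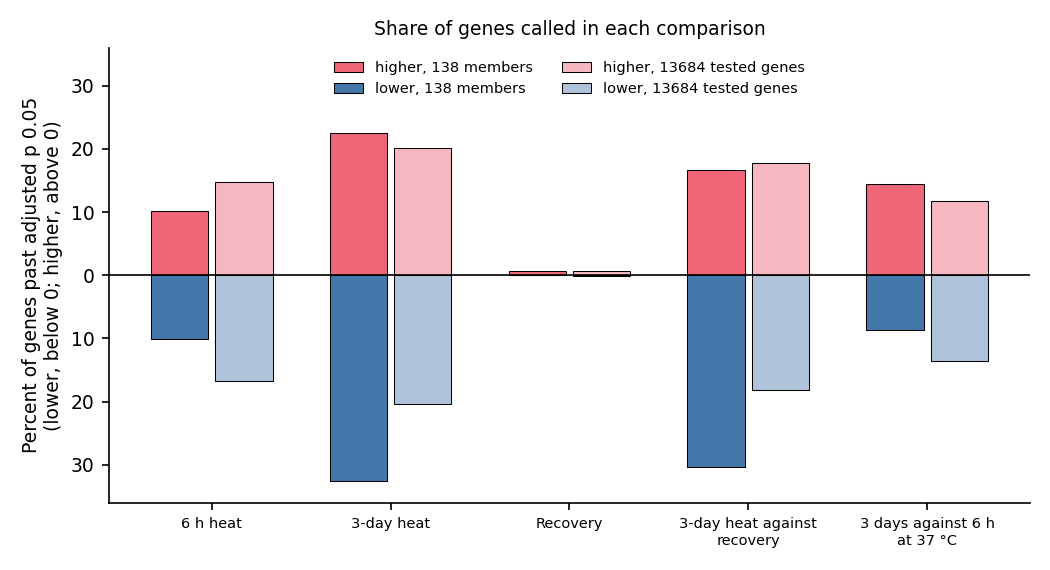
Percent of genes past an adjusted p of 0.05 in each of 5 comparisons, higher above and lower below the 0 line, for the 138 members (dark) and all 13684 tested genes (light). All bars are from the main fit, without a replicate block. The dark bars are shorter than the light ones after 6 h of heat (10.1% against 14.8% up and 10.1% against 16.7% down). The dark bar for falls is longer after 3 days of heat (32.6% against 20.3%).

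In none of the 5 comparisons did 43 members pass (31.2%), close to the 33.8% of all tested genes, and their group means still spanned up to 1.60 on the log2 scale. The range of the 5 group means was under 0.25 on the log2 scale for 13 members (9.42%) and for 5.52% of tested genes, and at least 1 for 44 members (31.9%) and 33.7% of tested genes. Member 56 had the narrowest range, 0.11, with values between 35329 and 40131 over all 13 libraries. Members 90, 125, 54 and 69 followed with 0.12, 0.13, 0.14 and 0.17. Among the 10 highest, member 10 stayed between 109101 and 146662 in all 13 libraries.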

How the data were processed

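Polyadenylated RNA of 13 cultures was measured, and the titles gave each library's group and replicate number. The submitters' processing notes name cutadapt, STAR, HTSeq and DESeq and the build ARS-UCD1.2, with no versions, and strand handling is not given in the sources used here. The deposited values are a normalised signal, gene reads divided by a size factor per library, which the authors computed with DESeq, per the file headers. Whole reads were recovered: 100% of values in each library were whole multiples of the value of 1 read within 0.01 reads, and size factors ran from 0.606 to 1.66. Each gene has at least 6 reads over the libraries. Recovered depth was 14859428 to 39117065 reads.

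Genes with a value of at least 10 in at least 2 libraries were tested, 13684 of 16595 (82.5%), all 138 members among them. Log2(value + 1) was fitted with limma 3.58.1 in R 4.3.3 (empirical Bayes with a trend) as 5 group means over the 13 libraries, without a replicate block. Adjusted p-values are limma's, two-sided, with Benjamini-Hochberg adjustment over all tested genes, and the threshold is 0.05. Log2 fold changes refer to log2(value + 1). Shares are percentages of a library's summed values and have no test. Alternatives were a pseudocount of 10, other filters, sum, upper quartile and quantile scaling, edgeR 4.0.16 (quasi-likelihood, TMM) and DESeq2 1.42.0 on the recovered reads, the replicate block, a term for replicate 3, replicates 1 and 2 only, no trend, only the groups compared, and each library left out. Where that leaves a group with 1 library, its spread is assumed to be that of the other groups. The procedure was tested on simulated data.

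No label ties a replicate number to a donor, a day or a batch. Deviations from the group mean correlated between same-numbered libraries of the 3 groups with 3 replicates (r from 0.27 to 0.72 across genes, 9 pairs), above the criterion of 0.1. Replicates 1 and 2 were similarly alike (0.27 to 0.48), and replicate 3 ran against both (-0.62 to -0.35). These correlations set replicate 3 apart but do not show that equal numbers mark paired cultures. The main fit has no block, and fits with one are given as an alternative. Same-numbered pairs with a group of 2 replicates gave -0.05 to 0.13. In a group of 2 the deviations mirror each other and hold no replicate 3. For these groups the check cannot show whether libraries are paired.

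The members, lists and tests were chosen with earlier results of these data known. Genes are named by this rule: the 15 highest members, the 5 largest rises and falls per comparison among members past the threshold whose groups do not overlap, values next to the limit, and the 5 narrowest and widest ranges of group means. Others are said to be chosen after their values were seen. The table of gene symbols at hand matched 0 of the identifiers, so lists of gene classes and cell type markers could not be applied and no sequence is shown, and at most 2 identifiers that rose and 2 that fell are printed.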

Additional observations from a re-analysis of the deposited data

Results flagged for a closer look

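Effects of heat that differ between times were singled out because the test of the difference itself, limma's interaction contrast, passed an adjusted p of 0.05. Between 3 days and 6 h of heat this held for 41 members. The effect at 3 days was lower than at 6 h for members 2 (-2.15), 22 (-2.09), 51 (-1.53), 64 (-1.40), 15 (-1.17), 23 (-1.07), 52 (-1.02), 24 (-0.87), 106 (-0.83), 12 (-0.75), 26 (-0.57) and 29 (-0.50), on the log2 scale. It was higher for members 7 (1.96), 28 (1.29), 20 (1.16), 78 (0.78), 97 (0.74), 21 (0.66) and 84 (0.58). Of these, members 2, 12, 20, 22, 51, 64, 78 and 106 passed under each alternative run, and the others were lost under at least 1 of them.

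For 7 members the recovery effect and the 6 h effect differed. It was lower for members 29 (-2.16), 41 (-1.18), 26 (-1.16) and 14 (-0.86), which had risen at 6 h, and higher for members 97 (0.79) and 13 (0.55), which had fallen. Members 26, 29 and 41 passed under each alternative run. No other library-level value was singled out, since no group has more than 3 libraries and a single outlying library was therefore not tested for. No explanation was tested for any of these differences.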

How the results depend on the processing

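No named change that passed reversed under any alternative run. Of the differences given singly that had not passed, those whose sign turned were member 2 at 6 h (-0.22 with quantile scaling) and after recovery (highest 0.005), member 22 at 3 days and in recovery minus 6 h (both without 3-day control replicate 1), and member 14 in 3 days minus 6 h (lowest -0.09). Of 105 changes of named members, 57 passed under each alternative run and 48 were lost under at least 1. With the replicate block the members called were 54 (6 h heat), 89 (3-day heat), 12 (recovery), 83 (3-day heat against recovery), 75 (3 days against 6 h at 37 °C), 77 (3 days minus 6 h) and 23 (recovery minus 6 h), against 28, 76, 1, 65, 32, 41 and 7 without it. In the same order, the block called 39.1%, 64.5%, 8.7%, 60.1%, 54.3%, 55.8% and 16.7% of the members. Of all tested genes it called 44.6%, 51.6%, 5.69%, 47.0%, 36.7%, 28.7% and 23.2%. No member called without the block was lost with it. In every comparison the samples share only a replicate number. With a term for replicate 3 the counts that moved by over 1.5 times were 53, 12, 75, 76 and 22 (6 h heat, recovery, time at 37 °C, 3 days minus 6 h, recovery minus 6 h), and with replicates 1 and 2 only they were 60, 38, 92, 85 and 35. Of all tested genes, 6092, 795, 5008, 3897 and 3109 passed with that term. With replicates 1 and 2 only, 6108, 1792, 5950, 4508 and 4069 genes passed. DESeq2 called 11 (recovery), 49 (time at 37 °C) and 14 (recovery minus 6 h) members, against 316, 3848 and 1902 of all tested genes. In a fit of only the groups compared the members called were 4, 13 and 4, against 480, 1655 and 1221 genes. Recovery gave 2 with a filter of 100 in every library, 2 with quantile scaling and 0 without the trend, and recovery minus 6 h gave 4 without a filter. Among all genes tested in these fits 122, 100, 36 and 1351 passed, in the same order. Leaving out each library gave 21 to 31 (6 h heat), 46 to 70 (3-day heat), 0 to 3 (recovery), 34 to 57 (3-day heat against recovery), 6 to 35 (time at 37 °C), 18 to 45 (3 days minus 6 h) and 3 to 8 (recovery minus 6 h). The lowest values at 3-day heat, time at 37 °C and 3 days minus 6 h came without 3-day control replicate 1, and those of both recovery comparisons without either recovery library. Fewer of all tested genes passed in those fits too. The cause was not tested, but a group of 2 left with 1 library has a larger error by construction. Without the 10 highest genes in numerator and denominator, the members' share was 24.0%, 25.0%, 25.0%, 25.1% and 24.3% (6 h control, 6 h heat, 3-day control, recovery, 3-day heat), so 3-day heat then lay below the 3-day control. With members taken by the mean of the 5 group means (141 genes) it was 34.4% in the 3-day control and 34.6% after recovery.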
